A study of Mus musculus with 6 samples.

Results

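The 9 genes described here encode enzymes that modify proline and lysine residues of collagen: the prolyl 4-hydroxylase α subunits P4ha1, P4ha2 and P4ha3, the β subunit P4hb, the lysyl hydroxylases Plod1, Plod2 and Plod3, and the lysyl oxidases Lox and Loxl2. They were picked by name out of 55487 genes in the count table, as oxygen-dependent collagen enzymes or, for P4hb, a subunit of one. They were chosen by their results in this same contrast as well, since P4ha2 was known to be among its clearest increases. Their fold changes are therefore given as a description, without p-values.

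αTC1 cells, the source of all libraries, are a mouse cell line from a glucagonoma, a tumour of the α cells that make glucagon in the pancreatic islets. Cells were treated with G786-1089, which the series describes as an inhibitor of the Tudor domain splicing factor SMNDC1 and which was taken to be compound 1 of the study, or with its solvent DMSO. Each treatment has 3 libraries, called A, B and C after the letters of their columns; which letter belongs to which replicate number in the labels is not known. The labels give no dose or duration and no genetic change, both groups are the same cell line in culture, and nothing in the labels shows that the libraries of a group came from separate cultures, so that p-values measure the spread between these libraries.

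Library totals ranged from 59070705 to 94747943 counts and every G786-1089 library was deeper than every DMSO library. The mitochondrial share of counts was 2.96 to 3.57% with G786-1089 and 2.27 to 2.76% with DMSO, and its part in the results below was not tested. Of 14 α cell marker genes, 11 were tested, 1 rose (Scg2), 5 fell and 5 did not pass in edgeR, and their part in the results below was not tested. The defining hormone gene Gcg fell from 21190 ± 1468 to 3125 ± 417 CPM (counts scaled between libraries by TMM, the trimmed mean of M-values; mean ± SD, n = 3 in each group; edgeR quasi-likelihood adjusted p = 0.000102). Tm4sf4 and Gc, which also mark α cells, had 0 counts in every library. Of 12 fibroblast markers, Col3a1, Dcn, Lum, Thy1 and Pdgfrb were at 0 in every library and Col1a2 was called lower, with the counts given below. The 12 markers summed to 19.7 to 55.0 CPM with G786-1089 and 22.1 to 44.5 CPM with DMSO, most of it from Fbln1. The endothelial genes Cdh5, Tie1 and Vwf and the leukocyte genes Cd3e and Adgre1 were also at 0 throughout. The 10 endothelial markers summed to 7.39 to 12.4 CPM against 17.2 to 28.8 CPM, and the 10 leukocyte markers to 8.44 to 23.9 CPM against 6.99 to 8.55 CPM. The libraries are bulk RNA, so fewer cells that express a gene and less of its RNA per cell cannot be told apart.

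Collagen chains are modified in the endoplasmic reticulum while they are being folded. Prolyl 4-hydroxylase, a tetramer of catalytic α subunits and the β subunit (the protein disulfide isomerase encoded by P4hb), converts prolines to 4-hydroxyproline, which keeps the triple helix stable at body temperature. Lysyl hydroxylases act on lysines, providing sites for sugars and for cross-links. These hydroxylases use molecular oxygen, iron, 2-oxoglutarate and ascorbate. Outside the cell, the copper-dependent lysyl oxidases Lox and Loxl2 oxidize lysines and hydroxylysines so that fibres become cross-linked. Several of these genes are known targets of hypoxia-inducible factors, which bind a short core of ACGTG or GCGTG. Pancreatic α cells are not a main source of collagen.

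The promoter windows of P4ha2 and P4ha1, the α subunit genes that were higher with G786-1089, and of their partner P4hb, which was not, are shown so that these cores can be seen in their surroundings. Sequences are from RefSeq on GRCm38.p6, 5′ to 3′ on the strand of the gene, and run from 250 bases before the RefSeq start to 50 after it. Capitals mark the cores ACGTG and GCGTG, or their reverse complements CACGT and CACGC where the core lies on the opposite strand. The windows are chr11:54100674-54100973 on the plus strand for P4ha2, chr10:59323046-59323345 on the plus strand for P4ha1 and chr11:120573204-120573503 on the minus strand for P4hb. The P4ha1 and P4hb windows lie at the first base of the gene as annotated for the counts. The P4ha2 window lies wholly inside the annotated gene, which begins at 54100095 and has 15 transcripts. Its cores and distances thus belong to a start further along the gene, and which start the cells used was not tested.
P4ha2: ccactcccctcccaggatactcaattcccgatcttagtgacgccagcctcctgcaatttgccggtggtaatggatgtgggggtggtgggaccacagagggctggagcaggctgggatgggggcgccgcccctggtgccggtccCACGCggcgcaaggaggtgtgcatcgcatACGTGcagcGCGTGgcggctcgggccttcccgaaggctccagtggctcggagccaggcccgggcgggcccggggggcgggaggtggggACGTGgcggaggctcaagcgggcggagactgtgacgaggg
P4ha1: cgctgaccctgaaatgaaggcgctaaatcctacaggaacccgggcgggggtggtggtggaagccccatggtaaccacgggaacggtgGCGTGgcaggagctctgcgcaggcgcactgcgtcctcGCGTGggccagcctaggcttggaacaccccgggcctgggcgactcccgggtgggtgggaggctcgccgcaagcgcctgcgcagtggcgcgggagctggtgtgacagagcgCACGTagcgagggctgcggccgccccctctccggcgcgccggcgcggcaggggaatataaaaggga
P4hb: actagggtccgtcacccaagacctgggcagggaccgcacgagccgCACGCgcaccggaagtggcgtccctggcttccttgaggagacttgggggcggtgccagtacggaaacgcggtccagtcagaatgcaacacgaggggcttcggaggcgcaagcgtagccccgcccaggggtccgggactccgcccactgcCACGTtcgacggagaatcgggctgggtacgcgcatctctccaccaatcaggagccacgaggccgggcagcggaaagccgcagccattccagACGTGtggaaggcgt

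The P4ha2 window held 4 cores, of which 2 were ACGTG and 2 GCGTG. The nearest lay 10 bases after the start and the others 69, 78 and 107 bases before it, with the last on the opposite strand. In the P4ha1 window, 3 cores were found, at 16, 126 and 163 bases before the start, and the one at 16 bases was an ACGTG on the opposite strand. The P4hb window also held 3, at 35 bases after the start and 56 and 205 bases before it. Thus the number of cores in the window of P4hb equalled that of P4ha1. Windows of 3 other enzyme genes were found: Plod3 had 4 cores, Plod1 had 2 and P4ha3 had 0. Of all 32851 promoter windows of this length in the table, counted on both strands with a CACGTG counted once on each strand, 43.8% held at least 1 core, 8.93% at least 3 and 3.86% at least 4. Among the 9690 windows with at least 60% G and C, which include those of P4ha1, P4ha2 and P4hb, 19.8% held at least 3 and 9.47% at least 4. A match to these letters is not evidence of binding.

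**Figure D1:**
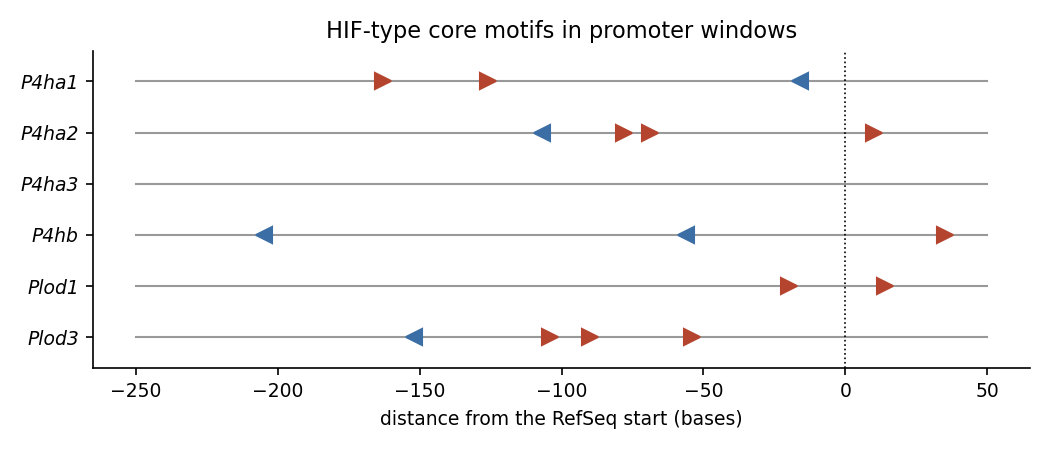
Positions of ACGTG and GCGTG cores in the promoter windows of 6 enzyme genes, as distance in bases from the RefSeq start (dotted line). Each triangle is the first base of a core, pointing right for the strand of the gene and left for the opposite strand; P4ha2 and Plod3 have 4 cores each, P4ha1 and P4hb 3 each, Plod1 2 and P4ha3 0.

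Of the 9 genes, 6 had enough counts to be tested and 2 of them, P4ha2 and P4ha1, passed an adjusted p under 0.05 in edgeR, both higher with G786-1089. The other 4 did not pass and 0 were lower. Across all 15082 genes tested, 14.8% passed this threshold, 6.98% as higher and 7.8% as lower with G786-1089. For its splicing events, the study kept genes with an adjusted p up to 0.1 and a log2 fold change of 1 or more in either direction. It took these values from DESeq2. With this filter applied to the edgeR values here, P4ha2 and P4ha1 passed too, as did 6.25% of tested genes as higher. Library values of the groups did not overlap for 2 of the 6 tested enzyme genes, and did not for 36.7% of all tested genes. Since the genes were chosen with this contrast known, nothing is read from these shares.

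P4ha2 (ENSMUSG00000018906, chr11:54100095-54131665 on the plus strand, GRCm38) encodes the catalytic α subunit of one of the prolyl 4-hydroxylase isoenzymes. Its level was 791, 841 and 861 CPM in G786-1089 libraries A, B and C, and 185, 210 and 178 CPM in DMSO libraries A, B and C. Every treated library lay above every DMSO library by a wide margin. The means were 831 ± 35.9 and 191 ± 16.7 CPM (SD, n = 3), a ratio of 4.35, and the fitted log2 fold change was 2.12 with an SE of 0.087. The values within each group were close, with coefficients of variation of 4.32% with G786-1089 and 8.72% with DMSO. These levels rest on 59193 to 84174 counts per treated library and 9682 to 13630 per DMSO library, so counting error is small. With all libraries thinned to 59070705 counts the log2 fold change was 2.12. By log2 fold change it ranked 87 of the 7900 genes with a mean log2 CPM of at least 3. P4ha2 was already well expressed in DMSO, at percentile 92.3 of tested genes, and stood at percentile 99.1 with G786-1089. Its share of all counts was 0.0178% with DMSO and 0.0892% with G786-1089.

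P4ha1 (ENSMUSG00000019916, chr10:59323296-59373304 on the plus strand) encodes the α subunit of the isoenzyme that is the main form in most tissues. It had 27.2, 26.0 and 30.8 CPM with G786-1089 and 7.53, 7.82 and 11.4 CPM with DMSO. The groups did not overlap, although DMSO library C lay closer to the treated libraries than the other two. The means were 28.0 ± 2.52 and 8.92 ± 2.16 CPM, a ratio of 3.14, with a log2 fold change of 1.65 and an SE of 0.25. The counts were 2033 to 2672 per treated library and 458 to 620 per DMSO library. Its log2 fold change was thus smaller than that of P4ha2 and its SE larger; a difference between both changes was not tested.

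P4ha3 (ENSMUSG00000051048, chr7:100285520-100319699 on the plus strand), the third α subunit gene, was near the limit of detection. It had 0 counts in each G786-1089 library, and 46, 1 and 25 counts in DMSO libraries A, B and C. A count of 0 allows up to 3 counts, which correspond to 0.030 to 0.040 CPM in the treated libraries, and the single count of DMSO library B lies within that limit. The gene was removed by the main filter on low counts, and no fold change is given. DESeq2, which kept it, put it past an adjusted p under 0.05 as lower, whereas edgeR with at least 1 count in any library and limma with all genes kept did not. The transcript was thus not detectable at this depth in the treated libraries, which does not show that it was absent.

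The level of each gene per kilobase, as FPKM, allows the α subunit genes to be compared with each other. P4ha2 made up 97.3, 97.9 and 96.2% of the summed α subunit FPKM in DMSO libraries A, B and C and 98.1, 98.3 and 98.0% in the G786-1089 libraries. It was therefore the main α subunit transcript of the line in both treatments. P4ha1 made up 2.61 ± 0.779% with DMSO and 1.88 ± 0.137% with G786-1089 (SD, n = 3). The P4ha2 FPKM was 27.5 to 47.2 times that of P4ha1 with DMSO and 49.2 to 56.9 times with G786-1089. The lowest treated library and the highest DMSO library of this ratio lay close together, and DMSO library C had the lowest ratio. These shares and ratios rest on the lengths used for FPKM. In G786-1089 library A, P4ha2 had 59193 counts at 309 FPKM and P4ha1 2033 counts at 6.03 FPKM. FPKM thus took P4ha2 as the shorter gene. All annotated exons of P4ha2 cover 6239 bases and those of P4ha1 4114, lengths that would give a smaller ratio.

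**Figure D2:**
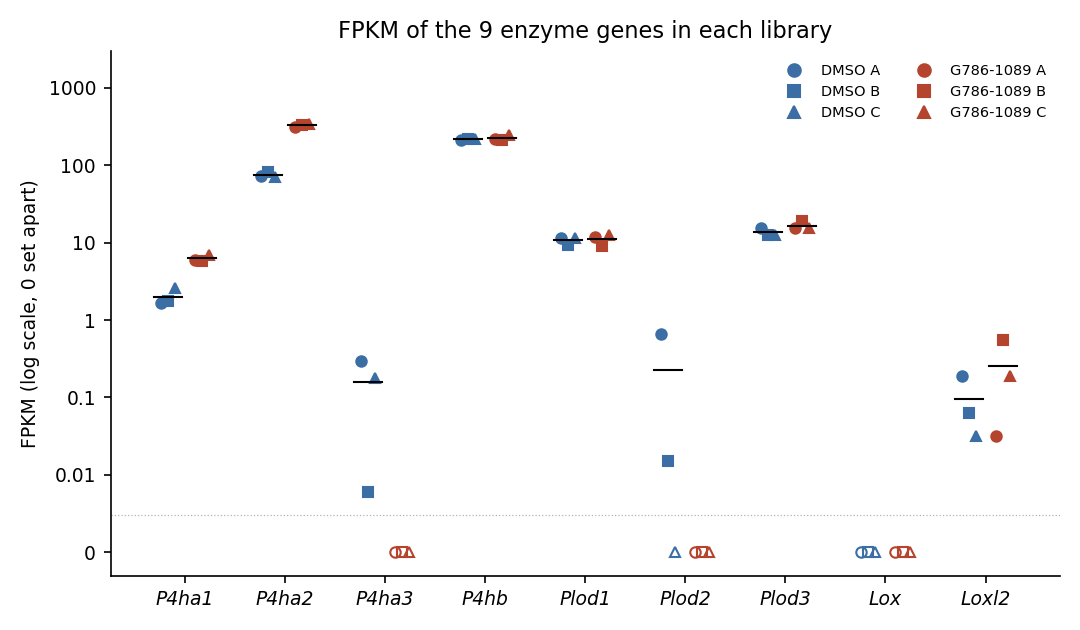
FPKM of the 9 enzyme genes in each library on a log axis, with values of 0 as open symbols below the dotted line; blue is DMSO, red is G786-1089, symbols are libraries A, B and C, and black bars are means. P4ha2 and P4ha1 are higher in all 3 treated libraries, P4hb, Plod1 and Plod3 overlap between treatments, P4ha3 and Plod2 are at 0 in all treated libraries, and Lox is at 0 in all 6.

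P4hb (ENSMUSG00000025130, chr11:120560298-120573253 on the minus strand) encodes protein disulfide isomerase, which holds the α subunits in soluble form and also works on its own as a disulfide isomerase. It had 680, 659 and 759 CPM with G786-1089 and 658, 686 and 686 CPM with DMSO. Values of both groups overlapped, with treated library C highest and DMSO library A lowest. The means were 699 ± 52.4 and 677 ± 16.2 CPM, and the log2 fold change was 0.05 with an SE of 0.07. The gene had 37277 to 66033 counts per library, so depth did not limit this comparison.

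With P4ha2 higher and the P4hb values overlapping, the balance of subunit transcripts differed between the treatments. The summed FPKM of the 3 α subunit genes was 315, 337 and 343 in the G786-1089 libraries and 74.6, 84.0 and 72.9 in the DMSO libraries. Divided by the FPKM of P4hb, this gave ratios of 1.45, 1.59 and 1.42 with G786-1089 and 0.353, 0.382 and 0.330 with DMSO. By these FPKM values, the α subunit sum was thus below P4hb in every DMSO library and above it in every treated library. Which side of 1 the ratio falls on depends on the gene lengths used for FPKM, which are not stated. In G786-1089 library A, P4ha2 had 59193 counts at 309 FPKM and P4hb 50862 counts at 217 FPKM. Counts per unit of FPKM were thus fewer for P4ha2, so FPKM took it as the shorter gene. All annotated exons of P4ha2 cover 6239 bases and those of P4hb 2861, so by exons P4ha2 is the longer. Lengths of all exons would give a lower ratio. A ratio above 1 therefore does not show that α subunit transcripts outnumbered those of P4hb. The mean ratio was 1.49 ± 0.0898 with G786-1089 and 0.355 ± 0.026 with DMSO. These are ratios of FPKM, and protein was not measured in these files.

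**Figure D3:**
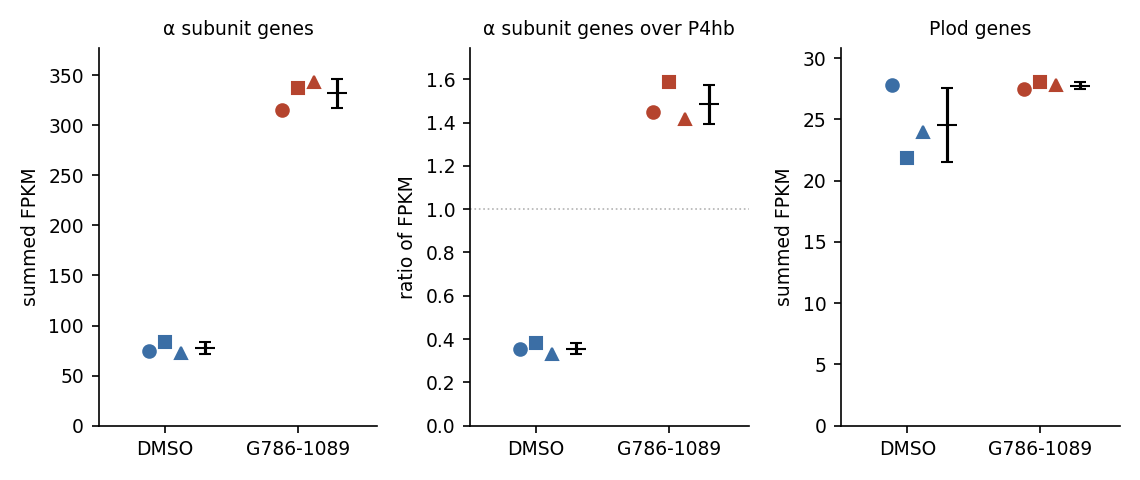
Left, summed FPKM of P4ha1, P4ha2 and P4ha3; middle, the same sum divided by the FPKM of P4hb, with a dotted line at a ratio of 1; right, summed FPKM of Plod1, Plod2 and Plod3. Circles, squares and triangles are libraries A, B and C and black marks are mean ± SD (n = 3); the α subunit sum and ratio separate the treatments while the Plod sums overlap.

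Among the lysyl hydroxylases, Plod1 and Plod3 were expressed and Plod2 was not reliably detected. Plod1 (ENSMUSG00000019055, chr4:147909753-147936767 on the minus strand), which hydroxylates lysines of the helical part of collagen, had 46.9, 35.6 and 49.7 CPM with G786-1089. With DMSO it had 45.6, 36.2 and 44.3 CPM, so the groups overlapped fully. Its log2 fold change was 0.07 with an SE of 0.19, from means of 44.0 ± 7.46 and 42.0 ± 5.06 CPM.

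Plod3 (ENSMUSG00000004846, chr5:136987019-136996648 on the plus strand) encodes an enzyme that also adds the sugars to hydroxylysine. It had 56.0, 67.4 and 54.7 CPM with G786-1089 and 55.6, 45.2 and 45.2 CPM with DMSO. DMSO library A lay within the range of the treated libraries, and the other DMSO libraries lay below it. The means were 59.3 ± 7.0 and 48.7 ± 6.01 CPM and the log2 fold change was 0.29 with an SE of 0.16. Of the exon bases of Plod3, 11.9% overlap other genes, of which 529 bases are shared with the antisense gene Znhit1. Znhit1, which encodes a subunit of a chromatin remodelling complex, fell with G786-1089 (log2 fold change -0.70, SE 0.09, edgeR adjusted p = 0.00417). Counting ignored strand, so reads of both genes in the shared stretch cannot be told apart.

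Plod2 (ENSMUSG00000032374, chr9:92542223-92608428 on the plus strand) hydroxylates lysines of the telopeptides, the short ends of collagen chains. It had 0 counts in each G786-1089 library and 161, 4 and 0 counts in DMSO libraries A, B and C. The DMSO counts thus come almost wholly from library A, and without it the gene would rest on the 4 counts of library B. It was removed by the main filter on low counts and no fold change is given. edgeR with at least 1 count in any library and limma with all genes kept did include it and did not put it past the threshold, and DESeq2 gave it no adjusted p.

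The FPKM of the 3 Plod genes summed to 27.4, 28.0 and 27.8 with G786-1089 and to 27.8, 21.9 and 24.0 with DMSO. DMSO library A reached the treated level, so the groups overlapped. Plod3 exceeded Plod1 in FPKM in all 6 libraries, by a ratio of 1.12 to 1.37 with DMSO and 1.21 to 2.08 with G786-1089. The α subunit sum was 2.68 to 3.84 times the Plod sum with DMSO and 11.5 to 12.4 times with G786-1089.

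The extracellular lysyl oxidases were absent or close to it. Lox (ENSMUSG00000024529), the founding member of the family, had 0 counts in all 6 libraries, which allows up to 0.030 to 0.055 CPM per library for counting error only. Loxl2 (ENSMUSG00000034205, chr14:69609068-69695834 on the plus strand), which cross-links basement membrane collagen, had 14, 322 and 96 counts with G786-1089 and 68, 24 and 10 with DMSO. In CPM these were 0.187, 3.22 and 1.11 against 1.12, 0.369 and 0.184. Treated library B stood above all others, whereas treated library A lay within the DMSO range. The log2 fold change was 1.43 with an SE of 1.16 and did not pass the threshold, and without treated library B it was 0.21. Loxl2 transcripts also share stretches of at least 100 bases at 95% identity or more with transcripts of 122 other genes, and its low counts are uncertain for that reason too.

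**Figure D4:**
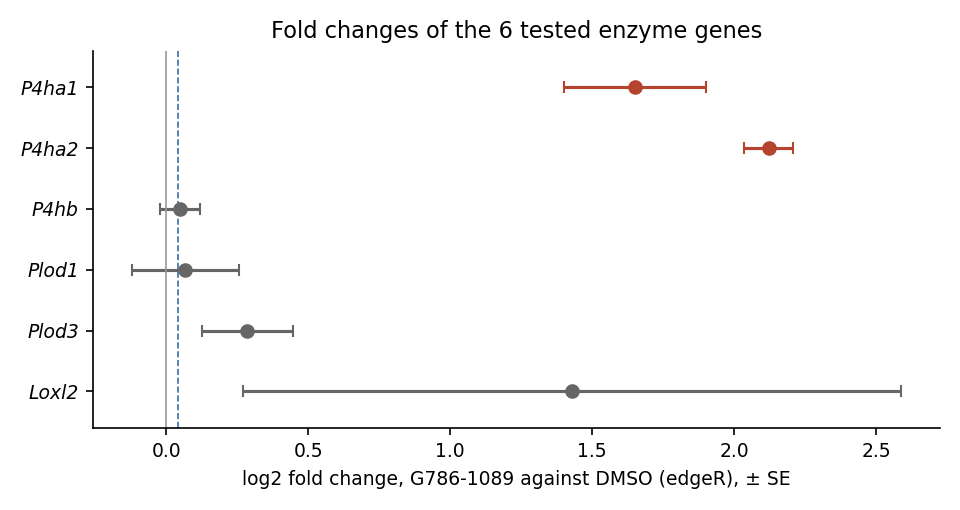
Log2 fold changes of the 6 tested enzyme genes, G786-1089 against DMSO, with their SE from edgeR; red marks the genes past an adjusted p under 0.05, the solid line is 0 and the dashed line is the median of all tested genes (0.04). P4ha2 (2.12) and P4ha1 (1.65) stand apart from P4hb, Plod1 and Plod3, and Loxl2 has the widest SE (1.16).

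Ordered by mean FPKM, the enzymes ran in DMSO from P4hb (217 ± 5.26) and P4ha2 (75.0 ± 6.38) to Plod3 (13.6 ± 1.68), Plod1 (10.7 ± 1.31) and P4ha1 (1.99 ± 0.487). Below these came Plod2, P4ha3 and Loxl2 between 0.0946 and 0.223, whose ranges over libraries overlapped, and Lox at 0. With G786-1089, P4ha2 came first at 326 ± 14.5, above P4hb at 224 ± 15.9, and the ranges of these neighbours did not overlap in either treatment. The order of genes rests on the lengths used for FPKM, in which P4ha2 was shorter than P4hb, unlike in all annotated exons. Plod3 (16.6 ± 2.06), Plod1 (11.2 ± 1.84) and P4ha1 (6.23 ± 0.536) kept their order. Plod3 was above Plod1 without overlap in both groups, and P4ha1 came within 1.79-fold of Plod1 with G786-1089, compared with 5.37-fold in DMSO. Together the 9 genes took up 0.0902 ± 0.00174% of all counts with DMSO and 0.179 ± 0.012% with G786-1089.

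The substrates of these enzymes were scarce in both treatments. Of 44 genes for collagen chains in the table, 18 had no count in any library and 10 had enough counts for a test. Their FPKM summed to 4.43, 2.73 and 1.47 with G786-1089 and 3.11, 4.10 and 3.60 with DMSO, and the groups overlapped. The α subunit sum was 20.3 to 23.9 times the collagen sum with DMSO and 71.2 to 233 times with G786-1089. Both chains past the threshold were lower, against 7.8% of all tested genes: Col6a3, a chain of microfibrillar collagen, with 0 counts in every treated library and 124, 15 and 122 with DMSO (edgeR adjusted p = 0.0233), and Col1a2, a chain of fibrillar collagen, with 5, 1 and 0 against 99, 319 and 64 counts (adjusted p = 0.0307). Both chains got past the filter on low counts only through the DMSO libraries, where they were high. Nothing is therefore read from their share, their direction or the list median below. With 10 counts required in every library, 1 chain was tested and 0 passed. With the column letter as a replicate block neither passed, at an adjusted p of 0.0813 for Col6a3 and 0.0668 for Col1a2 in edgeR. Col6a3 also missed the threshold when G786-1089 library A, B or C or DMSO library A or C was left out (edgeR adjusted p from 0.0542 to 0.0812). Col1a2 missed it when G786-1089 library B or C or any 1 DMSO library was left out (edgeR adjusted p from 0.0598 to 0.098). The chains with the highest mean FPKM were Col9a3, Col20a1 and Col16a1, which did not pass. Col9a3 had 505, 706 and 78 counts with G786-1089 and 4, 60 and 168 with DMSO. Col20a1 had 508, 227 and 324 against 180, 265 and 0, and Col16a1 had 0, 6 and 146 against 284, 71 and 200. Counts of these chains thus varied several-fold between libraries of one treatment. Over the 10 tested chains the log2 fold changes had a median of -2.19, compared with 0.04 over all tested genes, and was the same with Col6a3 placed at its lower bound of a 126-fold decrease (3 counts over the treated group).

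Other enzymes and chaperones of collagen assembly showed no call. Of 24 such genes, 12 were tested and 0 passed in edgeR, against a background of 14.8%. The median of their log2 fold changes was -0.03, with 6 above and 6 below 0. Ppib and Tmem38b had an unadjusted p under 0.05, DESeq2 called these and Colgalt2, and limma on log2(FPKM + 1) called Ppib at a mean FPKM of at least 1 but not with all genes kept. Ppib, the cyclophilin that works with prolyl 3-hydroxylase, had 17.5 ± 1.93 CPM with G786-1089 and 26.0 ± 4.09 CPM with DMSO (log2 fold change -0.58, SE 0.21, edgeR adjusted p = 0.131). Its library values did not overlap, at 15.8 to 19.6 CPM against 21.3 to 28.8 CPM. Colgalt1, a galactosyltransferase for hydroxylysine, had 11.2, 11.7 and 32.3 CPM against 17.7, 14.9 and 16.1 CPM, and Mia3, a cargo receptor for procollagen export, had 68.4 ± 16.3 against 57.1 ± 4.30 CPM.

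Relatives and partners of P4hb in disulfide exchange changed in both directions. Of 25 disulfide isomerases and oxidases other than P4hb, 22 were tested, 2 rose, 5 fell and 15 did not pass, against 14.8% called over all tested genes, 6.98% as higher and 7.8% as lower. Scaled by library size alone, 3 of the list were higher and 2 lower, with Tmx2 gained and Pdia4, Prdx4 and Dnajc10 lost. Ero1l, the oxidase that recharges protein disulfide isomerase, rose from 14.7, 17.2 and 11.9 CPM in DMSO to 83.0, 73.7 and 78.0 CPM (log2 fold change 2.42, SE 0.19, edgeR adjusted p = 0.000603). Erp44, which retains Ero1l in the early secretory pathway, rose from 61.7 ± 7.09 to 94.6 ± 7.27 CPM (log2 fold change 0.62, edgeR adjusted p = 0.0273), but with 1 library left out it passed only when that was G786-1089 library B. The isomerases Pdia6 and Pdia3 fell, while P4hb did not pass; whether their changes differed from that of P4hb was not tested. Pdia6 went from 566 ± 59.1 to 254 ± 21.6 CPM (log2 fold change -1.16, edgeR adjusted p = 0.00114), and Pdia3 from 743 ± 46.8 to 359 ± 45.6 CPM (log2 fold change -1.05, edgeR adjusted p = 0.00165). Prdx4, a peroxiredoxin of the endoplasmic reticulum, fell from 277 ± 27.9 to 192 ± 10.2 CPM (log2 fold change -0.53, edgeR adjusted p = 0.0168). The remaining calls were Pdia4 (-0.52) and Dnajc10 (-0.76), both lower, which were singled out after their values were seen. With 1 library left out, Pdia4 passed only without DMSO library B and Dnajc10 only without G786-1089 library C. Tmx2, which with Pdia3 and Prdx4 had the highest FPKM of the list, did not pass, at 682 ± 63.0 against 637 ± 43.3 CPM. The median log2 fold change of the 22 genes was -0.30. With the replicate block, Ero1l, Pdia3 and Pdia6 were the 3 genes that passed, and these passed with any 1 library left out as well. The number that passed was 4 without G786-1089 library A or B or DMSO library A or C, and 5 without G786-1089 library C or DMSO library B. Prdx4 missed the threshold without G786-1089 library B (edgeR adjusted p = 0.0542) or C (edgeR adjusted p = 0.0538).

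Partners of the lysyl oxidases, elastic fibre proteins and genes of copper supply were mostly low. Of 23 genes, 9 were tested, 2 fell and 0 rose, against 7.8% of all tested genes called lower and 6.98% higher, and their median log2 fold change was -0.86. Atox1, the chaperone that delivers copper to the secretory pathway, fell from 139, 145 and 128 CPM to 75.1, 80.4 and 71.0 CPM (log2 fold change -0.86, SE 0.11, edgeR adjusted p = 0.00375). Fbn2, a fibrillin of elastic fibres, had 90, 71 and 94 counts with DMSO and 0 in every treated library (edgeR adjusted p = 0.00741). Against 3 counts over the treated group this is at least 123-fold lower, a bound for counting error only. Fbn2 got past the filter on low counts only through the DMSO libraries, so nothing is read from its direction. With the replicate block Fbn2 did not pass (edgeR adjusted p = 0.0776). Slc31a1, the copper importer at the cell surface, had 48.4 ± 1.29 CPM with G786-1089 and 40.4 ± 2.09 CPM with DMSO, without overlap but without passing (edgeR adjusted p = 0.264). Fbln1, a fibulin, had 19.5, 55.0 and 43.3 against 42.8, 21.9 and 19.6 CPM.

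**Figure D5:**
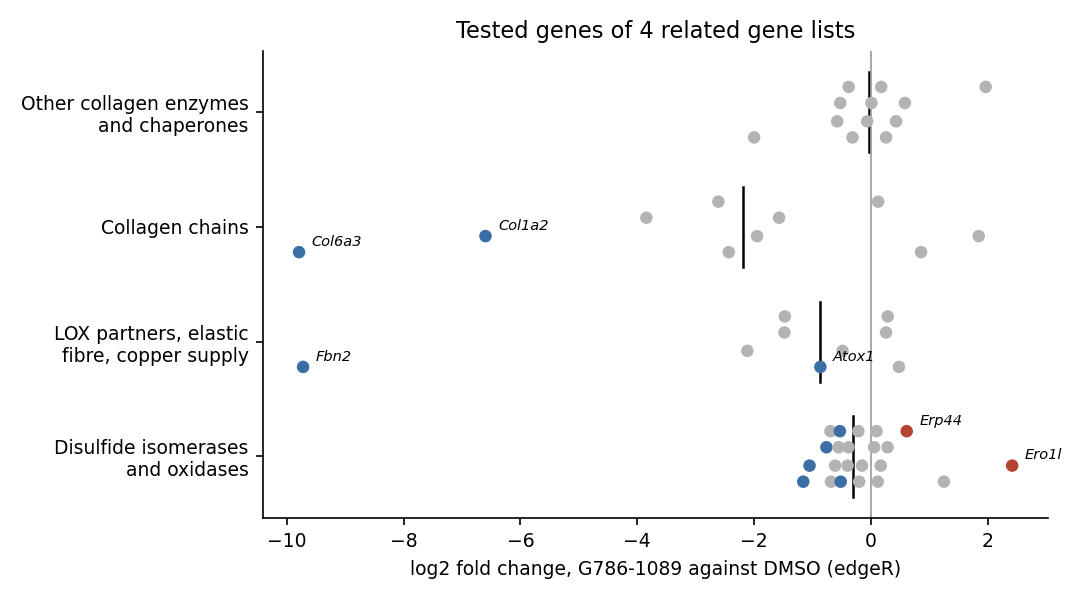
Log2 fold changes (edgeR, G786-1089 against DMSO) of the tested genes of 4 related lists, 12 other collagen enzymes and chaperones, 10 collagen chains, 9 lysyl oxidase partners and 22 disulfide isomerases and oxidases. Red and blue points passed an adjusted p under 0.05 as higher and lower, grey points did not, and black bars are list medians (-0.03, -2.19, -0.86 and -0.30); Col6a3 and Fbn2 have 0 counts in all treated libraries, so their fitted values depend on the prior count.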

How the data were processed

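RNA from 6 libraries of αTC1 cells was prepared by Smart-seq2, which keeps no strand. The authors aligned reads with STAR (2.7.9a in the submitters' processing notes) to GRCm38 and counted alignments on Ensembl transcripts regardless of strand; the deposited counts are these, summed per gene without normalization. The authors also deposited FPKM values, whose making is not given in the sources used here; between libraries their ratio to the counts was the same from the 1st to the 99th percentile of the 9385 genes checked. FPKM was used to compare genes with each other.

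Counts were fitted with edgeR 4.0.16 in R 4.3.3 (filterByExpr at a count of 10 and a total of 15 or more, TMM, quasi-likelihood test, Benjamini-Hochberg adjustment over 15082 genes); CPM values are TMM-scaled, and the SE is the absolute log2 fold change over the square root of F. Alternatives were DESeq2 1.42.0, limma 3.58.1 on log2 FPKM, other scalings and filters on low counts, a replicate block by column letter, counts thinned to the lowest total, and each library left out. The edgeR step was tested on simulated data.

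The 9 genes and the lists were chosen with earlier results of these data known. List members came from textbook knowledge of the pathways, not from a database. Named genes are the 9 enzymes; per list, up to 4 past the threshold with the smallest p and up to 3 with the highest mean FPKM; the 5 genes most correlated with P4ha2; defining markers; and genes overlapping an enzyme gene. Of 55487 genes, 55141 matched GENCODE vM21, used for overlaps. Shared stretches were found with blastn 2.17.0. Intervals and limits from counts cover counting error only. With 3 libraries against 3, the counts do not resolve genes with few reads.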

Additional observations from a re-analysis of the deposited data

How the results depend on the processing

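P4ha2 and P4ha1 passed the threshold in the same direction under each of 17 alternatives; DESeq2 added P4ha3, as lower. Their log2 fold changes ranged from 2.07 to 2.33 and from 1.28 to 1.86, and those of P4hb from -0.013 to 0.255, Plod1 from -0.033 to 0.275 and Plod3 from 0.184 to 0.488, none of which passed. Scaling by library size alone moved the median of all genes from 0.0411 to 0.246, with 1630 genes higher and 796 lower in place of 1053 and 1177; relative to that median, P4ha2 (2.33) and P4hb (0.255) stood about where they did. Loxl2 ranged from 0.18 to 2.43.

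The deviations of libraries sharing a letter correlated at 0.0151, 0.00274 and 0.0251 (A, B and C; 15082 genes), so the letters were not taken to pair libraries, although the study states that the samples of a replicate were processed together. With the replicate block by column letter, 1232 of all genes passed in place of 2230, and 1 lysyl oxidase partner, 3 disulfide isomerases and oxidases and 0 collagen chains; P4ha2 and P4ha1 stayed past the threshold.

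DESeq2 called 4298 of all genes, 3 other collagen enzymes, 4 lysyl oxidase partners, 11 disulfide isomerases and oxidases and 5 other 2-oxoglutarate hydroxylases. limma was also run on log2(FPKM + 1) and log2(FPKM + 0.1) at a mean FPKM of at least 1. Each gave 1 other collagen enzyme, 1 lysyl oxidase partner and 5 other hydroxylases. No collagen chain reached that mean FPKM, so none was tested there. With all genes kept in limma on log2(FPKM + 1), 0 chains passed. Requiring 10 counts in every library gave 1 lysyl oxidase partner, 4 other hydroxylases and 0 collagen chains, since the filter removed Fbn2 and both called chains. Library size alone gave 4 other hydroxylases. The filter of the study's splicing analysis, applied to the edgeR values, passed 1 lysyl oxidase partner, 3 disulfide isomerases and oxidases, 3 cofactor genes and 4 other hydroxylases.

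Leaving out 1 library at a time, the counts that pass ranged from 1253 to 1556 for all genes, 0 to 1 for other collagen enzymes, 2 to 3 for lysyl oxidase partners, 4 to 5 for disulfide isomerases and oxidases, 6 to 9 for cofactor genes, 2 to 3 for other hydroxylases and 0 to 2 for collagen chains, and stayed at 2 for the 9 enzymes. The calls of Col6a3 and Col1a2 were each lost in 7 of 13 alternatives, that of Prdx4 in 4 of 16 and that of Fbn2 in 1 of 13; the cause was not tested. For genes with few counts, 3 counts correspond to 0.030 to 0.055 CPM, a limit for counting error only. Some of these genes varied far more between libraries of one treatment, such as Plod2 with 161, 4 and 0 counts with DMSO.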

Other observations

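Of 29 genes of iron, ascorbate and 2-oxoglutarate supply, 25 were tested, 4 rose and 6 fell (edgeR adjusted p under 0.05), against 6.98% and 7.8% of all tested genes, with a median log2 fold change of -0.14. Hmox1, which releases iron from haem, rose from 52.5, 50.8 and 53.5 CPM in the DMSO libraries to 274, 263 and 209 CPM with G786-1089 (log2 fold change 2.25, SE 0.13, edgeR adjusted p = 0.000241). The ferritin genes moved apart: Ftl1, the light chain, rose from 1916 ± 50.6 to 2722 ± 87.3 CPM (log2 fold change 0.51, edgeR adjusted p = 0.00112), while Fth1, the heavy chain with the ferroxidase centre, fell from 1866 ± 55.5 to 1321 ± 9.36 CPM (log2 fold change -0.50, edgeR adjusted p = 0.00115). Tfrc, the transferrin receptor, and Fbxl5, an iron-sensing ubiquitin ligase subunit, were the other genes that rose, with log2 fold changes of 1.87 and 0.55; both were singled out after their values were seen, and Fbxl5 passed only without DMSO library B among the fits with 1 library left out. Without DMSO library A, 6 genes of the list passed in place of 10. Slc25a10, the mitochondrial dicarboxylate carrier, fell from 412 ± 42.9 to 161 ± 36.0 CPM (log2 fold change -1.36, edgeR adjusted p = 0.00392). Idh3a, a subunit of the isocitrate dehydrogenase of the citric acid cycle, did not pass at 713 ± 18.4 against 829 ± 57.0 CPM.

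Among 23 other hydroxylases that use 2-oxoglutarate and iron but do not act on collagen, 20 were tested, 2 rose and 0 fell, against 6.98% and 7.8% of all tested genes, with a median log2 fold change of 0.32. DESeq2 also called Egln1, Jmjd8 and P4htm. Jmjd6, a lysyl hydroxylase of splicing proteins, rose from 64.3, 61.7 and 54.6 CPM to 137, 144 and 139 CPM (log2 fold change 1.22, SE 0.11, edgeR adjusted p = 0.00113). Alkbh5, an RNA demethylase, rose from 24.3, 24.2 and 36.2 CPM to 69.8, 68.8 and 74.2 CPM (log2 fold change 1.33, SE 0.20, edgeR adjusted p = 0.00737). The most abundant per kilobase, Egln2, Phyh and Ogfod3, did not pass, with log2 fold changes of 0.10, -0.11 and -0.27.

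The genes whose log2 CPM followed that of P4ha2 most closely over the 6 libraries, out of 7899 with a mean log2 CPM of at least 3, were Gadd45g (Pearson r = 0.99984), Mdm2 (0.99895), Jun (0.99775), Gas5 (0.99752) and Slc3a2 (0.99734). In all, 42 genes reached 0.99, and P4ha1 had 0.961. The 6 points fall into the treatments, so that r mostly reflects the difference between these, and libraries share their depth and composition across genes. Gadd45g had 135 ± 8.22 CPM with G786-1089 and 29.3 ± 2.23 CPM with DMSO, Mdm2 225 ± 7.28 and 64.8 ± 3.48 CPM, and Jun 194 ± 7.04 and 66.8 ± 6.93 CPM.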
